A study of Homo sapiens with 12 samples.

Results

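The mitochondrial ribosomal proteins described here are the protein-coding genes whose GENCODE symbol begins with MRPL or MRPS followed by a digit. The rule found 78 of the 60675 gene IDs in both deposited count tables, of which 19586 were protein-coding with a symbol. By name, 49 belonged to the large subunit (MRPL) and 29 to the small subunit (MRPS), and they lay on 21 chromosomes. No measured value entered this rule, although the set was chosen with earlier results of these data known.

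Mitochondrial ribosomes translate the few proteins that the mitochondrial genome still encodes, all of them membrane subunits of the respiratory chain and ATP synthase. Their RNAs come from the mitochondrion, whereas every one of their proteins is encoded in the nucleus, translated in the cytosol and imported. Many of these proteins descend from the bacterial ribosome of the endosymbiont, and the others were added later in evolution. Going by the unified names of ribosomal proteins, 46 of the 78 members (30 large, 16 small) are counted as having a bacterial relative. The other 32 are counted as specific to mitochondria. MRPS18A and MRPS18B are among these 32, although they are paralogs of the bacterial S18 protein.

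A375 is a human melanoma line, and the other line, called the MIR211 line here, is A375 made to overexpress the microRNA gene MIR211. The 4 RNA-seq libraries measured total RNA of unlabelled cells, with replicates a and b of each line. The 8 BRIC-seq libraries came from cells that had been given 5-bromouridine (BrU) for 24 h and were collected 0, 1, 3 and 6 h after labelling, with 1 library per line and time. BrU takes the place of uridine in new RNA, and an antibody then pulls down the labelled RNA, so that the chase follows RNA made before it began. Each line is a single line, so an effect of MIR211 cannot be told apart from any other difference between the lines. The labels do not say that libraries came from separate cultures, and the p-values below therefore rest on a spread among samples that may be purely technical. In such bulk samples, fewer cells with a transcript and less of it per cell cannot be told apart.

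Depth was 20.8 to 34.1 M counts per RNA-seq library and 2.67 to 7.28 M per BRIC-seq library. From 0 to 6 h of chase it went from 2.67 to 7.28 M in A375 and from 2.78 to 6.66 M in the MIR211 line. The share of mitochondrially encoded RNA went from 22.2% to 34.1% and from 18.1% to 32.4%. Depth and this share thus cannot be separated from chase time. The MIR211 locus had 0 counts in all 6 libraries of A375 and 2 to 36 counts in each of the 6 of the MIR211 line. Its counts go with the labels, and mature miR-211 was not measured. In the RNA-seq libraries, summed melanocyte markers (8 genes) stood at 492 and 485 CPM (counts scaled to a common library size) in A375. In the MIR211 line they stood at 384 and 425 CPM. Of these, MITF had 253 and 244 CPM in A375 against 38.8 and 49.0 CPM in the MIR211 line. The other markers together therefore summed higher in the MIR211 line than in A375. SOX10 stood at 135 CPM or more, while MLANA and TYR were at most 0.25 CPM. Keratinocyte markers summed to at most 0.55 CPM, leukocyte markers to at most 2.95, endothelial markers to at most 9.19 and fibroblast markers to 26.2 to 61.6. Their part in the results was not tested.

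Promoters of the members are shown first because they carry a pair of short motifs far more often than other promoters do. RefSeq (GRCh38.p14) held a promoter window, from 250 bases before to 50 after the start, for 69 of the 78 members. The letters CCGGAAG, bound by ETS-family factors such as GABPA, stood on either strand in 29 of these (42.0%), against 14.4% of 15345 protein-coding promoters. The letters AAGATGGC, bound by YY1, stood in 20 (29.0%), against 3.97%. The 8-letter NRF1 motif GCATGCGC stood in 6 (8.70%), against 4.25%, and TATAAA in 2 (2.90%), against 9.63%. At least 1 of the ETS, YY1 and 8-letter NRF1 motifs was found in 42 members (60.9%), against 20.5%. The ETS and YY1 letters can overlap by AAG, and a match is a string of letters, not a measured binding site. The 120 bases before the start are printed for 6 members in which these motifs recur, with motif matches in capitals.
MRPS34 (chr16:1773135-1773254, minus strand, 3 ETS matches): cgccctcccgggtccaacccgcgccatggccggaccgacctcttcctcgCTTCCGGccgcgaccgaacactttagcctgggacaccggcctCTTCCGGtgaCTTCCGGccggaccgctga
MRPS22 (chr3:139343874-139343993, plus strand, ETS matches on opposite strands): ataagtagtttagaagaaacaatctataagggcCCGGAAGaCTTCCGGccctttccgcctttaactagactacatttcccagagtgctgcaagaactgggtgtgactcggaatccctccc
MRPL20 (chr1:1407294-1407413, minus strand, ETS matches): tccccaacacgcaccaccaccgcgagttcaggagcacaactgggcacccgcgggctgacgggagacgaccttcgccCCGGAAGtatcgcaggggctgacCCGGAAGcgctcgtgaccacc
MRPL47 (chr3:179604639-179604758, minus strand, a YY1 and an ETS match): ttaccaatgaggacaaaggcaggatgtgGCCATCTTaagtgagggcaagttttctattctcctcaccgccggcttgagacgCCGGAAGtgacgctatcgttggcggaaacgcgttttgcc
MRPL52 (chr14:22829767-22829886, plus strand, YY1 matches): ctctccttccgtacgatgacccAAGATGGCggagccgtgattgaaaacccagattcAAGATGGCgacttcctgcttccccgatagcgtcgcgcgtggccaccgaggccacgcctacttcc
MRPL17 (chr11:6683341-6683460, minus strand, NRF1 matches, the first a palindrome read on both strands): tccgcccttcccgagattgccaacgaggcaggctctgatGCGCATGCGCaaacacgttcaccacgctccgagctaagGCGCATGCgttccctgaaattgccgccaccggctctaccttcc

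The microRNA by which the lines differ is shown next, with its seed (bases 2 to 8) in capitals, followed by 3′ UTR matches to the seed in the members. The mature sequence is from RefSeq, and the sites are from the GENCODE 44 (hg38) transcripts, with the 7 letters AAAGGGA that pair with the seed in capitals. MRPS17 is shown for the largest line difference of slopes (given with the chase results), MRPL42 for its pair of sites and high labelled level, and MRPL19 and MRPS34 as further members of each subunit. MRPS17 was thus picked by its values in these data, its difference did not pass, and its reads are uncertain.
hsa-miR-211-5p (chr15:31065095-31065116, minus strand): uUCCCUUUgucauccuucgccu
MRPS17 (chr7:55955191-55955217, plus strand): agaaggatctAAAGGGAaaaactgaca
MRPS34 (chr16:1771903-1771929, minus strand): agaagctatgAAAGGGAataaagagaa
MRPL19 (chr2:75655562-75655588, plus strand): gaacctgagcAAAGGGAataggtggga
MRPL42, nearer the stop codon (chr12:93501957-93501983, plus strand): aatcctttgaAAAGGGAgtataattac
MRPL42, farther downstream (chr12:93505461-93505487, plus strand): gcttttaggcAAAGGGAatgcttcttc

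The 7 letters occurred in the 3′ UTR of 9 of the 78 members (11.5%), against 3292 of 19061 mRNAs (17.3%). Beside those shown, the site stood in MRPL17 (on 2 occasions), MRPL22, MRPL35, MRPS25 and MRPS27. In total RNA the line difference of these 9, MIR211 line minus A375, ranged from -0.64 to -0.01 on the log2 scale with a median of -0.15, against a median of -0.01 over the other 69 members. In labelled RNA it ranged from -1.60 to 0.48 with a median of -0.44, against -0.46 over the other 60 members tested there. None of the 9 passed either comparison.

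Members differed widely in their level in total RNA. Divided by the length of the mRNA, the median level was 35.5 CPM per kb in A375 against 36.7 in the MIR211 line. MRPL20 stood at 135 CPM per kb in A375 against 124 in the MIR211 line, MRPL51 at 117 and 148, MRPL33 at 115 and 125, and the small subunit protein MRPS21 at 111 and 92.4. The lowest in A375 were MRPL42 (6.81 CPM per kb), MRPS11 (6.92) and MRPS14 (6.95), which differed from each other by less than the spread between the libraries of MRPS11. MRPL42 has the longest annotated mRNA of the members, 15557 bases, with a coding sequence of only 426 bases, so its level per length depends on that annotation. The members' mRNAs were short, with a median of 1242 bases against 2955 over 19061 mRNAs. In all, the 78 members took 0.390% to 0.492% of the counts in RNA-seq and 0.125% to 0.198% in BRIC-seq.

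The comparison of total RNA addresses whether the members' steady-state level differed between the lines. None of the 78 members passed in either direction (edgeR quasi-likelihood test, Benjamini-Hochberg adjusted p under 0.05), against 73 of 19258 genes (0.379%) over all genes tested. At an unadjusted p under 0.05 there were 2, against 2107 of the 19258 genes. DESeq2 also called 0 members, against 748 of all genes. The median line difference was -0.015 on the log2 scale, against -0.003 over all genes. It moved to between -0.17 and 0.15 when 1 of the 4 libraries was left out, at -0.17 without A375 replicate a and 0.15 without A375 replicate b. Replicate a was below replicate b for 65 members in A375 and for 63 in the MIR211 line. In 16 members (20.5%) both libraries of one line lay above both of the other, 13 of them lower in the MIR211 line, against 41% of all genes tested.

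MRPS30, a protein with a small-subunit name that sits in the large subunit, had the smallest p of the members. Its level was 170.1 and 139.6 CPM in A375 against 101 and 93.2 CPM in the MIR211 line (replicates a and b). Both A375 libraries lay above both libraries of the MIR211 line, with a log2 difference of -0.68 (SE 0.19), and it did not pass (edgeR adjusted p = 0.276). MRPS31, a mitochondria-specific small subunit protein, followed with 37.4 and 46.6 CPM in A375 against 29.6 and 29.3 CPM in the MIR211 line (log2 -0.51, SE 0.19, edgeR adjusted p = 0.437).

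Among members with a positive difference, MRPL34 had 26.4 and 17.7 CPM in A375 against 38.3 and 28.1 CPM in the MIR211 line (log2 0.59, SE 0.29). MRPL51 had 96.6 and 113 CPM in A375 against 144 and 122 CPM in the MIR211 line (log2 0.34, SE 0.19). Neither pair overlapped between lines and neither passed (edgeR adjusted p = 0.559 and 0.624). The most negative difference of any member belonged to MRPS36, at -1.47 (SE 0.62, edgeR adjusted p = 0.498). This protein carries a ribosomal name but is now known as a component of the oxoglutarate dehydrogenase complex. Its counts were 179 and 909 in A375 against 230 and 243 in the MIR211 line, so that A375 replicate b alone stood high. MRPS36 was named after its values were seen.

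The stalk recruits translation factors to the large subunit. Its members had line differences near 0 in total RNA: 0.01 (SE 0.22) for MRPL12, 0.04 (SE 0.17) for MRPL10 and -0.22 (SE 0.43) for MRPL11. MRPS12, which lines the decoding centre, had 0.12 (SE 0.23), and MRPL45, which attaches the ribosome to the inner membrane, -0.13 (SE 0.17). The 3 paralogs of the bacterial S18 protein, MRPS18A (in the large subunit), MRPS18B and MRPS18C, had 0.08, 0.02 and -0.01. MRPL55 had 0.05 and MRPL58, a peptidyl-tRNA hydrolase that became a ribosomal protein, 0.47 (SE 0.35). None of these passed.

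Labelled RNA covered the members unevenly. BRIC-seq counts were sufficient to test 69 of the 78 members (41 large, 28 small), a filter on low counts that applies to every gene. MRPL12, MRPL23, MRPL28, MRPL38, MRPL41, MRPL52, MRPL54, MRPL55 and MRPS12 were too low. MRPL12 had 914 to 1779 counts per RNA-seq library but 0 to 19 per BRIC-seq library. MRPL54 had 9 counts in A375 at 3 h and 0 in the other 7 BRIC-seq libraries, and 503 to 1115 in RNA-seq. For such members no slope can be given at this depth.

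The mRNAs that were too low in labelled RNA were poor in uridine. Their median uridine share was 17.2% and their median GC share 62.2%, against 25.1% and 47.1% for the 69 that were tested. Over all 78 members, labelled RNA at 0 h divided by total RNA (both as CPM plus 0.5, mean of the lines) followed the uridine share, with a Pearson r of 0.68 and a Spearman rho of 0.68. With the GC share the values were -0.73 and -0.72, and with the log2 of mRNA length 0.49 and 0.47. All points come from the same libraries, and the tables were scaled separately, so only the order of the ratios carries meaning. At the upper end MRPS6 stood at 196% of its total RNA level and MRPL42 at 149.6%. At the lower end MRPL54, MRPL55 and MRPS24 had no labelled count at 0 h in either line.

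**Figure D1:**
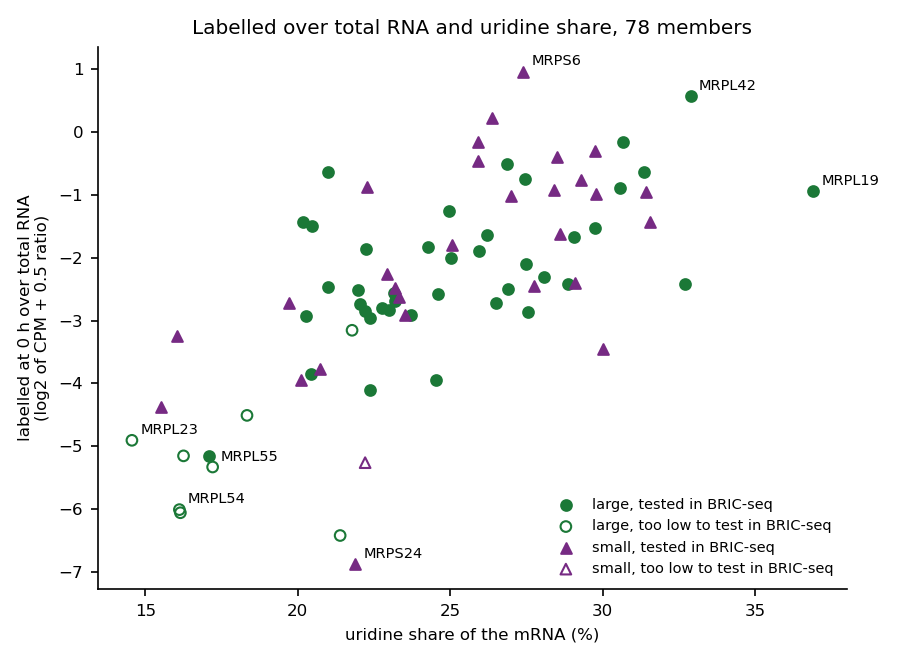
Labelled RNA at 0 h over total RNA (log2 of the ratio of CPM plus 0.5, mean of both lines) against the uridine share of the mRNA in percent, 1 point per member (78). Circles are large and triangles small subunit members; open symbols are the 9 members too low to test in BRIC-seq. The ratio is higher for members with more uridine, with MRPS6 and MRPL42 at the top.

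Over the chase, more members rose than fell within the labelled pool. The chase slope is the log2 change per h of a labelled transcript against the scaled labelled pool, so a positive slope marks a transcript that was lost more slowly than the pool and not one that increased in the cell. Of the 69 members tested, 29 rose (18 large, 11 small), 6 fell and 34 did not pass (edgeR quasi-likelihood test over both lines). Over all 13703 genes tested, 29.9% rose and 34.4% fell. The members' median slope was 0.12 per h (0.12 large, 0.09 small) against -0.04 for all genes.

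These directions rest on the scaling. With total counts in place of TMM factors, the median of all genes moved by -0.16 per h and 3 members rose and 19 fell, against 13.7% and 52.7% of all genes. With mitochondrially encoded genes also left out of the totals, 10 rose and 12 fell, against 18.2% and 47.9% of all genes. When cytosolic ribosomal protein mRNAs or glycolysis mRNAs were held constant, the median of all genes moved by -0.36 and -0.45 per h, 1 and 0 members rose, and 35 and 61 fell. Over all genes 67.9% and 86.1% then fell. The distance between the members' median and that of all genes was 0.15 to 0.16 per h under TMM, RLE, DESeq2 and each of these 5 other scalings, the table's row without a gene included, since a scaling shifts all genes almost alike. The row without a gene moved the median of all genes by -0.71 per h, with 0 members rising and 67 falling, and 98.2% of all genes falling.

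**Figure D2:**
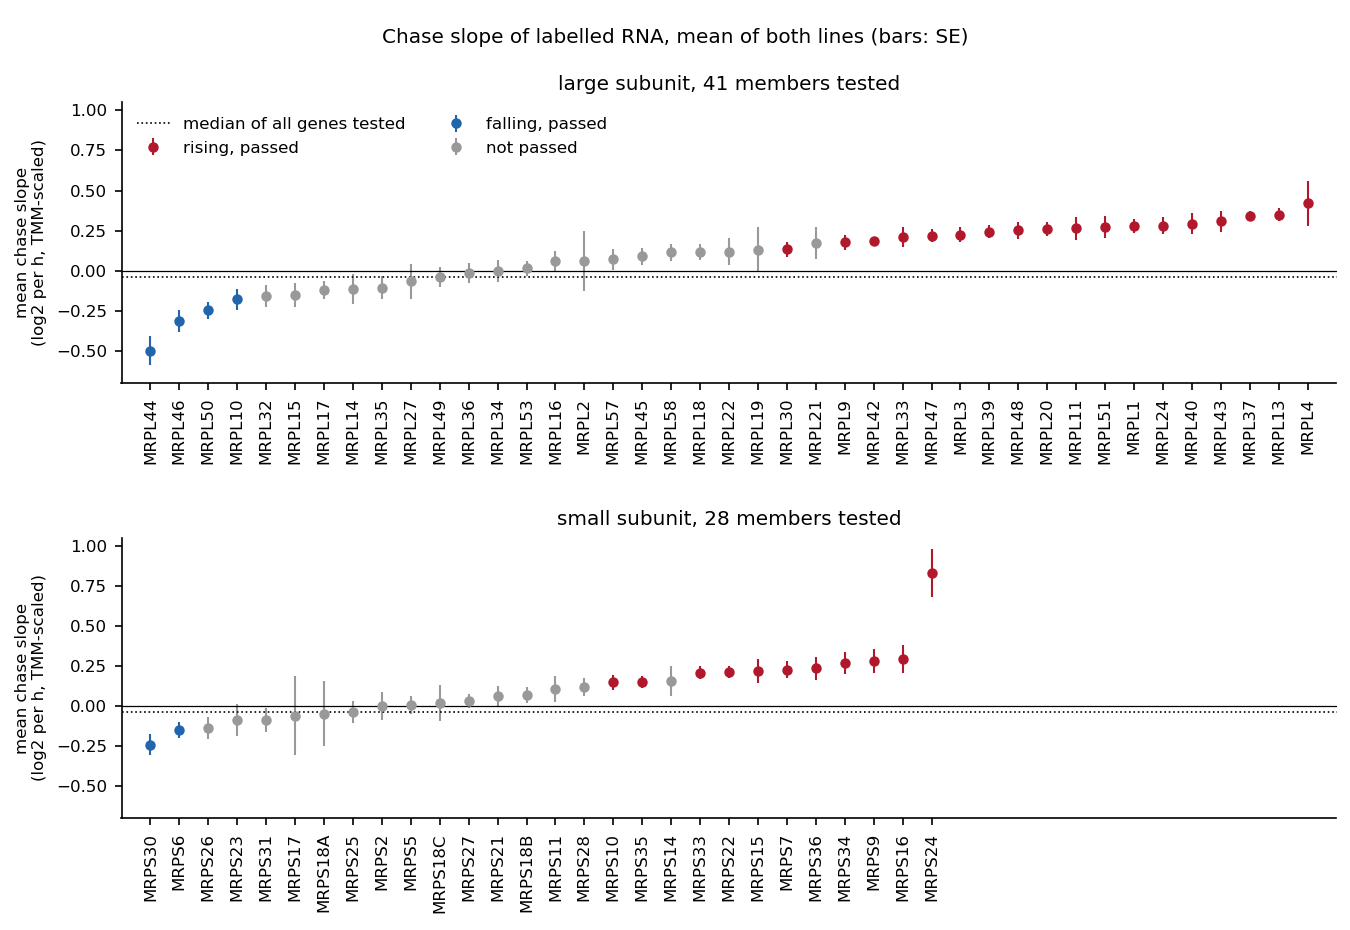
Mean chase slope of labelled RNA in log2 per h on the TMM scale for the 41 large and 28 small subunit members tested, in ascending order, with SE bars. Red points rose and blue points fell (edgeR adjusted p under 0.05), grey points did not pass, and the dotted line is the median of all genes tested. 29 members rose and 6 fell on this scale, and the split turns to 3 and 19 with total counts.

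Among the large subunit members that rose were MRPL13, MRPL37 and MRPL24, named by size of slope among members whose average log2 CPM was 3 or more. MRPL13, a relative of bacterial L13 (ENSG00000172172), stood at 38.9, 30.7, 66.8 and 152 CPM at 0, 1, 3 and 6 h in A375. In the MIR211 line it stood at 40.2, 37.9, 59.5 and 149 CPM. Both lines dipped or stayed level in the first hour and were highest at 6 h, which gives a slope of 0.35 per h (SE 0.04, edgeR adjusted p = 0.000131). MRPL37, specific to mitochondria (ENSG00000116221, chr1:54184041-54225464), stood at 15.9, 16.9, 25.4 and 56.3 CPM in A375 against 12.2, 16.5, 27.1 and 57.8 CPM in the MIR211 line. Its slope was 0.34 per h (SE 0.03). MRPL24, a relative of bacterial L24, was at 8.24 CPM at 0 h and 24.7 CPM at 6 h in A375 against 11.7 and 30.9 CPM in the MIR211 line (slope 0.28 per h, SE 0.06).

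Small subunit members that rose included MRPS16, MRPS7 and MRPS15, all relatives of bacterial proteins. MRPS16 stood at 20.3, 5.28, 13.5 and 53.2 CPM in A375 against 14.7, 22.4, 37.4 and 47.5 CPM in the MIR211 line, with a slope of 0.29 per h (SE 0.09). The lines took different courses at 1 h, and both were highest at 6 h. MRPS7, from the head of the small subunit, had a slope of 0.23 per h (SE 0.05) and MRPS15 one of 0.22 per h (SE 0.07). The calls of MRPS16, MRPS15 and the stalk protein MRPL11 (0.26 per h, SE 0.07) were lost without the A375 6 h library, at edgeR adjusted p of 0.184, 0.147 and 0.084. MRPS15 also lost its call without the MIR211 6 h library (0.161).

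The most positive slope of any member was that of MRPS24, at 0.83 per h (SE 0.15, edgeR adjusted p = 0.00138), which lies below the level set for the names above. Its counts were 0, 4, 59 and 94 in A375 against 0, 12, 9 and 77 in the MIR211 line. With no count at 0 h in either line, it met the count filter only through later libraries, where it was high. A rise was thus built into its test, and MRPS24 stays among the members counted as rising. It shares exons with the readthrough gene URGCP-MRPS24 on the same strand, so its reads are uncertain. MRPL4 followed at 0.42 per h (SE 0.14), with 0, 19, 83 and 77 counts in A375 against 8, 23, 35 and 37 in the MIR211 line. Both were named after their values were seen.

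Of the 6 members that fell, 4 have large subunit names. MRPL44, a protein with an RNase III-like fold (ENSG00000135900, chr2:223957463-223967714), stood at 12.1, 16.7, 9.52 and 1.41 CPM in A375. In the MIR211 line it stood at 10.3, 11.3, 5.52 and 1.47 CPM. Both lines were lowest at 6 h, on 7 and 6 counts, and the slope was -0.50 per h (SE 0.09, edgeR adjusted p = 0.0015). MRPL46, which has a Nudix hydrolase fold (ENSG00000259494, chr15:88459477-88467390), stood at 19.1, 9.51, 12.4 and 4.82 CPM in A375 against 16.04, 7.34, 5.86 and 3.19 CPM in the MIR211 line (slope -0.31 per h, SE 0.07). MRPL50 (ENSG00000136897), specific to mitochondria, went from 12.4 to 3.62 CPM in A375 against 10.1 to 4.17 CPM in the MIR211 line between 0 and 6 h (slope -0.25 per h, SE 0.05). These 3 kept a passing negative slope with each of the 8 libraries left out in turn.

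The other members that fell were MRPL10, MRPS30 and MRPS6, and their calls each depended on single libraries. The stalk base protein MRPL10 stood at 12.1, 17.1, 16.4 and 9.24 CPM in A375 against 11.96, 12.9, 8.10 and 4.17 CPM in the MIR211 line (slope -0.18 per h, SE 0.06, edgeR adjusted p = 0.0354). Its call was lost without the A375 1 h or 6 h library or any 1 library of the MIR211 line, with adjusted p of 0.060 to 0.306, and also with RLE scaling (0.0567) and with no count filter (0.128). Its slope was -0.18 to -0.16 per h in 5 of the 6 fits where leaving out a library lost the call, and -0.10 without the MIR211 6 h library. MRPS30 (chr5:44808947-44820428) stood at 130.1, 135, 109.8 and 38.2 CPM in A375 against 53.0, 67.4, 68.1 and 26.7 CPM in the MIR211 line. It was level until 3 h and lowest at 6 h in both lines (slope -0.24 per h, SE 0.06), and its call was lost without the 6 h library of A375 (0.116) or of the MIR211 line (0.061). MRPS6, a relative of bacterial S6, stood at 76.8, 49.0, 39.3 and 42.4 CPM in A375 against 150.1, 95.2, 59.8 and 68.1 CPM in the MIR211 line. It was highest at 0 h (slope -0.15 per h, SE 0.05), and the call was lost without either 0 h library, without the MIR211 6 h library, with RLE scaling and with DESeq2 (edgeR or DESeq2 adjusted p of 0.057 to 0.099). Reads of MRPS6 are uncertain because SLC5A3 shares exons with it on the same strand. The next small subunit member, MRPS23, had a slope of -0.09 per h (SE 0.10) and did not pass.

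**Figure D3:**
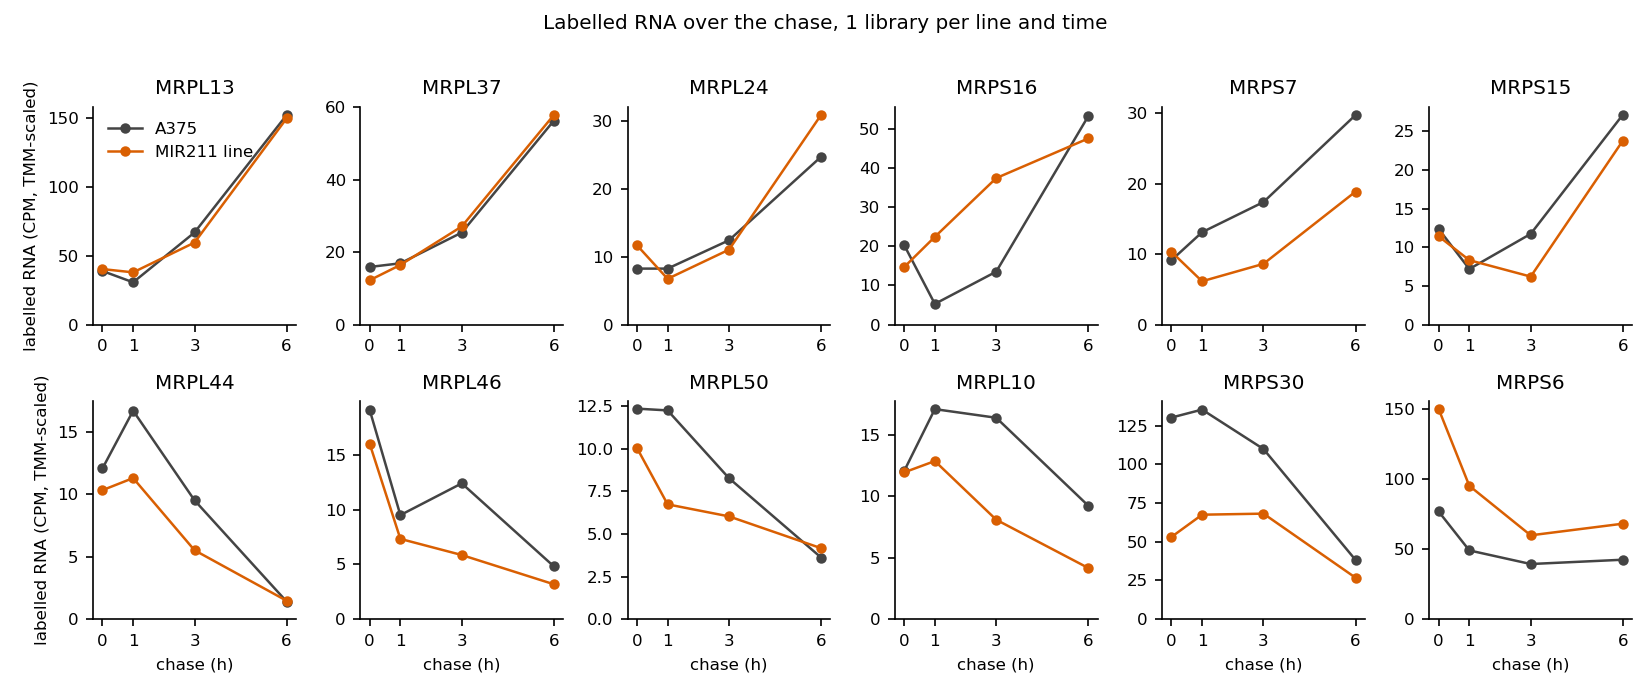
Labelled RNA in CPM (TMM-scaled, each axis from 0) against hours of chase for 6 members that rose (upper row) and the 6 that fell (lower row), with 1 library per line and time. Grey lines are A375 and orange lines the MIR211 line. MRPL13 reaches 152 and 149 CPM at 6 h, while MRPL44 reaches 1.41 and 1.47 CPM.

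MRPL46 and MRPS11 form the only pair of members whose starts lie within 5000 bases of each other. They stand head to head on chromosome 15, with starts 63 bases apart in GENCODE 44, MRPL46 on the minus and MRPS11 on the plus strand. Their values differed: MRPL46 fell, whereas MRPS11, a relative of bacterial S11, had a slope of 0.11 per h (SE 0.08) that did not pass. The difference between their slopes was not tested. None of the 5 falling members with a promoter entry held the ETS letters CCGGAAG, whereas 14 of the 24 tested members with those letters rose, beside 13 of 37 without them. That split was seen in the data and not tested.

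The rise was spread over the later intervals of the chase. In the first hour the members' median log2 change (CPM plus 0.5) was -0.02 in A375 and -0.20 in the MIR211 line, with 32 and 22 of 69 members going up. From 1 to 3 h it was 0.57 and 0.39, with 57 and 54 going up, and from 3 to 6 h it was 0.29 and 0.19, with 43 and 40 going up. Over all genes the interval medians lay between -0.04 and 0.04. The members' course was flatter than that of cytosolic ribosomal protein mRNAs, whose median changed by -0.48 and -0.52 in the first hour, by 0.77 and 0.75 from 1 to 3 h and by 1.47 in both lines from 3 to 6 h. The difference between these lists was not tested.

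The slope fitted in each line gave fewer calls. In A375, 21 members rose and 4 fell, against 23% and 24.2% of all genes. In the MIR211 line, 15 rose and 4 fell, against 21.9% and 21%. The 12 members that rose in both lines make up 57.1% of the A375 list and 80.0% of the MIR211 list: MRPL1, MRPL13, MRPL20, MRPL24, MRPL37, MRPL39, MRPL42, MRPL47, MRPL48, MRPS22, MRPS24 and MRPS33. The slopes of both lines share a single estimate of the spread. The MRPS33 call in the MIR211 line depended on single libraries, as given below. As said above, MRPS24 met the count filter only through libraries after 0 h, so its rise was built in. The same overlap was not counted over all genes, so these shares are not read as a trait of the members. MRPL44 alone fell in both (-0.52 per h, SE 0.14, in A375 and -0.48, SE 0.14, in the MIR211 line), and no member rose in one line and fell in the other. Without the 6 h library of A375 no gene at all was called for the A375 slope (0 of 14100), and without that of the MIR211 line none for the MIR211 slope (0 of 14134), so the 0 members called there say nothing about the members. Their median slope was 0.22 per h in A375 without its 6 h library, against 0.16 with it, and 0.05 against 0.08 in the MIR211 line. With 0 h of A375 left out, 11 of 72 members rose in A375, against 2372 of 14577 genes. With 1 h of A375 left out, 10 rose in A375, and without the 1 h library of the MIR211 line, 8 rose in that line. The counts without a 1 h library are not set against all genes here. They cannot be told apart from a general loss of calls and are not read as a trait of the members.

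Where the average log2 CPM was 3 or more, MRPL51 and MRPL19 were among the most positive slopes in A375. MRPL51 stood at 24.1, 16.1, 22.5 and 93.4 CPM in A375 (0.37 per h, SE 0.09) and was high at 6 h alone, so that without the A375 6 h library the slope was 0.02. MRPL19 stood at 15.3, 17.97, 83.9 and 88.6 CPM in A375 (0.47 per h, SE 0.15) and at 50.3, 16.3, 21.9 and 21.1 CPM in the MIR211 line. The A375 call of MRPL19 was lost without the A375 0 h or 1 h library (edgeR adjusted p = 0.172 and 0.110), with slopes of 0.39 and 0.41 per h. In the MIR211 line the most positive slopes at that level, beside MRPL37 and MRPL13, included MRPL1 (0.31 per h, SE 0.06) and MRPS33 (0.21 per h, SE 0.06). The MRPS33 call was lost without the A375 1 h or 3 h library (edgeR adjusted p = 0.055 and 0.053). It was also lost without the MIR211 0 h or 1 h library (0.142 and 0.082) and with no count filter (0.132). The MRPS33 slope was 0.17 to 0.21 per h in these fits. With total counts it was 0.03 per h and did not pass (0.764).

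The slope difference between the lines addresses whether the members' labelled RNA was lost at different rates in the lines. No member passed, as no gene did over all 13703 tested (0%, edgeR), and DESeq2 called 0 members, against 14 of all genes. At an unadjusted p under 0.05 there were 4 members, against 527 of all genes. Of the 69 differences, 42 were below 0, with a median of -0.04 per h against 0.00 for all genes. The smallest p belonged to MRPS36, with 3.83, 4.23, 7.59 and 18.1 CPM in A375 against 5.71, 4.76, 5.86 and 6.62 CPM in the MIR211 line (difference -0.33 per h, SE 0.10). MRPS17 had 0, 24, 37 and 33 counts in A375 against 14, 13, 0 and 0 in the MIR211 line (difference -1.86 per h, SE 0.56). Reads of MRPS17 are uncertain because NIPSNAP2 shares exons with it on the same strand. The positive differences with the smallest p were those of MRPL15 (0.23 per h, SE 0.13) and MRPL43 (0.18 per h, SE 0.13). The edgeR adjusted p of all 4 was 1.

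Large and small subunit members are set side by side here by their slopes and by their summed RNA, without a test. The gap between their median slopes was 0.03 per h, and 0.01 per h when MRPS30 and MRPS18A were counted with the large subunit, where they sit. With members grouped by name, the ratio of summed CPM of large to small subunit members in the labelled libraries went from 1.19 at 0 h over 1.29 and 1.43 to 2.05 at 6 h in A375; for the MIR211 line it went from 1.12 over 1.205 and 1.42 to 2.13. In total RNA it was 1.40 and 1.47 in A375 against 1.57 and 1.57 in the MIR211 line. With MRPS30 and MRPS18A counted as large, a grouping of these sums that was chosen after seeing the data, the ratio was 1.74, 1.95, 1.85 and 2.22 in A375 against 1.31, 1.51, 1.72 and 2.27 in the MIR211 line. In total RNA it was then 1.74 and 1.72 in A375 against 1.82 and 1.79 in the MIR211 line. Under both groupings the 6 h ratio of each line lay above that of every RNA-seq library, whereas the order at 0 and 1 h depended on the grouping in A375.

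A few abundant members carried those sums. MRPL42 alone held 16.6% to 30.02% of the labelled large subunit counts, against 3.70% to 4.51% in total RNA. It stood at 139.8, 201, 181 and 312 CPM in A375 against 176, 183, 275 and 396 CPM in the MIR211 line (slope 0.18 per h, SE 0.03, edgeR adjusted p = 0.000736). Without it the ratio at 6 h was 1.64 and 1.52. The median large subunit member, by contrast, stood at 9.42, 9.51, 12.1 and 11.9 CPM in A375 against 8.16, 6.54, 6.55 and 6.13 CPM in the MIR211 line. The median small subunit member stood at 12.7, 10.6, 17.4 and 23.1 CPM and at 11.4, 8.33, 12.4 and 15.9 CPM. On the small side MRPS30, which fell, was among the highest at 0 h and far lower at 6 h.

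**Figure D4:**
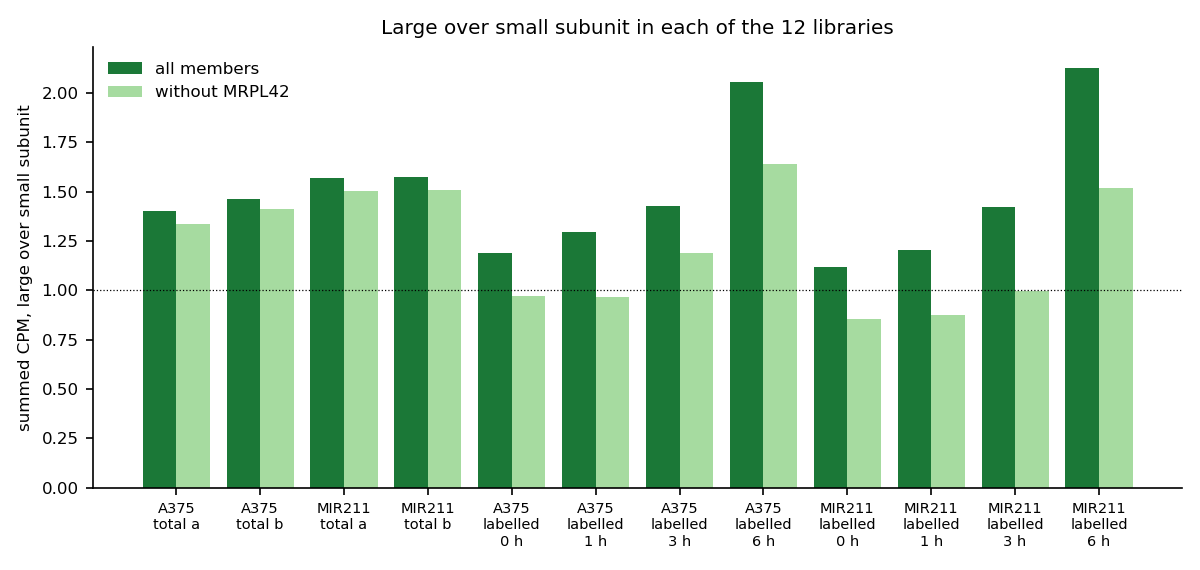
Ratio of summed CPM, large over small subunit members (49 and 29 by name), in each of the 12 libraries, with all members (dark) and without MRPL42 (light); the dotted line marks equal sums. By name the ratio goes from 1.19 and 1.12 at 0 h to 2.05 and 2.13 at 6 h of chase, and to 1.64 and 1.52 without MRPL42; with MRPS30 and MRPS18A counted as large, which is not plotted, it goes from 1.74 and 1.31 to 2.22 and 2.27.

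In labelled RNA with the 4 times matched, 14 of 69 members were lower in the MIR211 line than in A375 (8 large, 6 small), 2 were higher and 53 did not pass (edgeR quasi-likelihood test). Over all genes 12.3% were lower and 13.6% higher. The members' median difference was -0.46 on the log2 scale, against -0.05 over all genes, and 53 of 69 differences were below 0. By time the median was -0.14 at 0 h, -0.33 at 1 h, -0.67 at 3 h and -0.45 at 6 h, with 42, 51, 56 and 52 of 69 values below those of A375, while all genes had medians of -0.05 to -0.01. Of all 13703 genes tested, 7323, 7148, 7005 and 6951 were below A375 at these times. As a description, 27 members had values below those of A375 at all 4 times and 4 had values above them at all 4. The same count over all genes was not made. The 4 times stand in for replicates here, with 1 library per line and time.

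The count of called members depended on scaling and on single libraries. Called members (lower and higher) numbered 15 with RLE, 16 with DESeq2 and 21 with total counts. They numbered 25 with totals lacking mitochondrially encoded genes, of which 23 were lower, and 45 with glycolysis mRNAs held constant, all lower. Over all genes, the shares lower and higher were 15.3% and 10.9% with total counts, 18.1% and 10.7% without mitochondrially encoded genes, and 50.1% and 5.50% with glycolysis mRNAs. The members' median moved with the scaling, to -1.02 with glycolysis mRNAs and to -0.67 with the row without a gene held constant. Holding glycolysis mRNAs constant moved the median of all genes by -0.56. A scaling shifts all genes almost alike, so it leaves the members' distance from the other genes nearly fixed by construction. The distance between the members' median and that of all genes lay between -0.43 and -0.41 over TMM and these scalings, cytosolic ribosomal protein mRNAs and the row without a gene included. Without the A375 1 h library 6 members were called. Without the A375 3 h, the MIR211 1 h or the MIR211 3 h library 5 were called. Without the 6 h library of A375 or of the MIR211 line, 10 and 8 were called. The share of members called lower then lay nearer that of all genes than with all libraries. Without the A375 1 h, 3 h or 6 h library it was 6.94%, 5.88% and 11.6% against 5.47%, 4.33% and 8.23% of all genes. Without the MIR211 1 h, 3 h or 6 h library it was 5.56%, 5.88% and 8.70% against 5.11%, 5.20% and 7.69%. Without the 0 h library of either line it was 15.3% against 8.51%. The members' median stayed between -0.55 and -0.30 with any 1 library left out.

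Among the members that were lower, MRPL57 had the most negative difference. MRPL57, specific to mitochondria (ENSG00000173141, chr13:21176658-21179084), stood at 9.72, 10.99, 14.6 and 12.5 CPM in A375 against 2.45, 4.96, 6.55 and 4.41 CPM in the MIR211 line. Every A375 library lay above every MIR211 library (log2 -1.39, SE 0.21, edgeR adjusted p = 0.00533). In total RNA it had 43.8 and 54.4 CPM in A375 against 41.1 and 41.1 CPM in the MIR211 line, a log2 difference of -0.26 (SE 0.19) that did not pass.

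MRPS31 (chr13:40729128-40771190) stood at 39.7, 38.7, 67.5 and 29.9 CPM in A375 against 23.9, 19.2, 26.2 and 11.8 CPM in the MIR211 line (log2 -1.11, SE 0.15, edgeR adjusted p = 0.00391). MRPS30, with the values given above, had a log2 difference of -0.88 (SE 0.15). For both, every A375 library lay above every MIR211 library of labelled RNA except at 6 h for MRPS30, where 38.2 CPM in A375 lay below 3 values of the MIR211 line. MRPS30 and MRPS31 were also the members with the smallest p in total RNA. MRPL57, MRPS31 and MRPS30 stayed lower, with a passing test, when any 1 of the 8 libraries was left out.

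MRPS11 stood at 20.9, 10.99, 13.4 and 18.1 CPM in A375 against 6.25, 2.38, 7.24 and 11.3 CPM in the MIR211 line (log2 -1.30, SE 0.28). MRPL58, the peptidyl-tRNA hydrolase, stood at 12.1, 14.2, 22.5 and 26.9 CPM in A375 against 8.16, 8.13, 10.5 and 8.33 CPM in the MIR211 line (log2 -1.05, SE 0.22). In total RNA, where it did not pass, MRPL58 was at 32.7 and 16.8 CPM in A375 against 33.2 and 35.0 CPM in the MIR211 line. MRPL16, a relative of bacterial L16, had a log2 difference of -1.01 (SE 0.28). The calls of MRPS11, MRPL58 and MRPL16 were lost on leaving out single libraries: MRPL16 without any 1 of the 8, MRPS11 without a 0 h or 1 h library of either line or the MIR211 3 h library, and MRPL58 without a 1 h or 3 h library of either line or the MIR211 6 h library. The edgeR adjusted p was then between 0.051 and 0.184. The other members that were lower were MRPL1, MRPL18, MRPL32, MRPL34, MRPL53, MRPS21, MRPS22 and MRPS26, with log2 differences from -1.15 (MRPS26) to -0.62 (MRPL1).

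Both members that were higher belong to the small subunit. MRPS6 was 76.8 CPM in A375 against 150.1 CPM in the MIR211 line at 0 h, and stayed above A375 at each later time (log2 0.80, SE 0.11, edgeR adjusted p = 0.00376, passing with any 1 library left out). MRPS35 stood at 16.8, 19.7, 22.1 and 30.1 CPM in A375 against 23.9, 28.8, 48.4 and 46.8 CPM in the MIR211 line (log2 0.72, SE 0.15). Its call was lost without a 1 h or 3 h library of either line (edgeR adjusted p of 0.051 to 0.071). Neither passed in total RNA, where MRPS6 had -0.04 (SE 0.21) and MRPS35 -0.02 (SE 0.16). With glycolysis mRNAs or the row without a gene held constant, no member was called higher. Among members with positive differences that did not pass were MRPS16 (log2 0.68, SE 0.44), MRPL30 (0.29, SE 0.13), MRPL42 (0.29, SE 0.13) and MRPL3 (0.12, SE 0.18).

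Line differences in labelled and in total RNA are set side by side as a description. Over the 69 members the line differences had a Pearson r of 0.05 and a Spearman rho of 0.09, given as a description over genes measured in the same libraries of each kind. Of the 14 members lower in labelled RNA, 9 had a difference below 0 in total RNA, with a range from -0.68 (MRPS30) to 0.59 (MRPL34). Whether the labelled differs from the total difference was not tested, since the tables come from different libraries and were scaled separately. The labelled difference had a Pearson r of 0.36 and a Spearman rho of 0.40 with the uridine share of the mRNA (69 members). With the GC share the values were -0.28 and -0.30, with the log2 of mRNA length 0.28 and 0.32. With the length of the 3′ UTR they were 0.23 and 0.29. The mean slope had -0.11 and -0.06 with the uridine share.

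**Figure D5:**
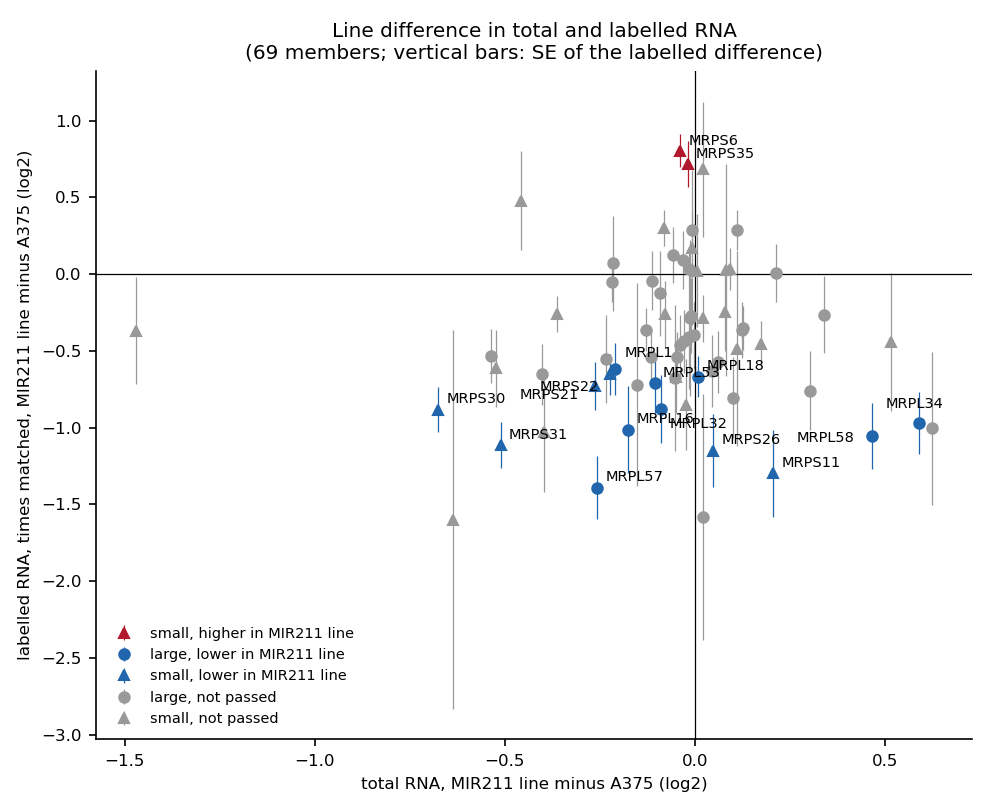
Line difference of the 69 members tested, MIR211 line minus A375 in log2, in total RNA (horizontal) and in labelled RNA with times matched (vertical, with SE bars). Blue symbols were lower and red symbols higher in labelled RNA (edgeR adjusted p under 0.05, TMM scale), grey ones did not pass; circles are large and triangles small subunit members. Labelled differences lie mostly below 0 (53 of 69) while total differences scatter about 0.

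The 5 mitoribosome proteins with other names are DAP3 and PTCD3 of the small subunit, CHCHD1 and AURKAIP1, also of the small subunit, and GADD45GIP1 of the large subunit. None passed in total RNA, and their log2 differences lay between -0.31 (PTCD3) and 0.08 (CHCHD1). DAP3, AURKAIP1 and GADD45GIP1 rose over the chase, with slopes of 0.16 (SE 0.06), 0.48 (SE 0.17) and 0.23 (SE 0.07) per h. PTCD3, a pentatricopeptide protein, was lower in the labelled RNA of the MIR211 line (log2 -0.71, SE 0.10, edgeR adjusted p = 0.00411), and all 5 labelled differences were below 0.

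Slopes of genes that build or serve the mitoribosome are given list by list, beside those of its proteins. Of 24 assembly factors tested, 4 rose and 12 fell, with a median of -0.21 per h; RPUSD4, a pseudouridine synthase of the mitochondrial ribosomal RNA (-0.35 per h, SE 0.05), fell and NGRN (0.31 per h, SE 0.04) rose. Of 15 translation factors, 7 rose and 2 fell, among them the elongation factor TUFM (0.41 per h, SE 0.03) and the RNA-binding protein LRPPRC (0.27 per h, SE 0.02), which rose. Of 5 factors of mitochondrial transcription, 4 fell and 0 rose. By comparison, 75 of 80 cytosolic ribosomal protein mRNAs rose (median 0.33 per h) and 60 of 76 nuclear mRNAs of oxidative phosphorylation (median 0.32 per h). These directions are on the TMM scale, under which holding other references constant shifts every slope alike. The differences between lists were not tested.

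In labelled RNA, 4 of the 24 assembly factors were lower in the MIR211 line and 0 higher, with a median log2 difference of -0.38, and MALSU1, which binds the large subunit during assembly, had -1.03 (SE 0.18). For cytosolic ribosomal proteins the median was -0.01, with 9 of 80 higher and 8 lower, and for nuclear oxidative phosphorylation mRNAs 0.00, with 4 of 76 higher and 5 lower. Glycolysis mRNAs, held constant in a scaling above, had a median of 0.39, with 9 of 16 higher and 1 lower. The members' median of -0.46 stands beside these as a description.

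Reads of some members are uncertain. Exons of another gene overlap those of 40 members, 15 on the same strand and 29 on the opposite strand, and 36 members have pseudogene entries. In all, 86 related entries that are no members (79 of them pseudogenes) held 0.951% to 1.29% of the members' counts in RNA-seq and 1.12% to 5.18% in BRIC-seq, highest at 0 h. The MIR211 6 h library held the lowest share and the A375 0 h library the highest.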

How the data were processed

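The authors deposited raw read counts per gene, as whole numbers, with a table each for RNA-seq and BRIC-seq. The kit was a stranded one for total RNA, per the labels' protocols. HISAT2 2.1.0 and StringTie are named in the submitters' processing notes, and StringTie quantification and DESeq2 in the design text. The notes give hg19 and the design text hg38, so coordinates come only from GENCODE 44 (hg38) and RefSeq (GRCh38.p14). Settings for strand and multi-mapping: not given in the sources used here. The BRIC-seq counts include a row that names no gene, which held 0.000108% to 0.00122% of them and was left out.

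Counts were tested with edgeR 4.0.16 in R 4.3.3 (glmQLFit and glmQLFTest, TMM scaling, filterByExpr with a minimum count of 10 and a total of 15), with Benjamini-Hochberg adjustment over all genes tested and a threshold of 0.05. Residual degrees of freedom were 2 for total RNA, 5 for the mean slope (hours, with line as covariate), 4 for the fit with a slope per line, and 3 for the labelled line difference with times matched. Where a library was left out so that a line kept 1 RNA-seq library, the spread was that of the other line. CPM values use TMM-scaled library sizes; levels per length use the MANE mRNA. Standard errors follow from the fitted log2 value and its F statistic. On simulated data with 200 changed genes, the fits recovered 95.9% of slopes of 0.3 per h (13454 genes), 84.5% of labelled log2 differences of 1 (13472 genes) and 71.0% of total RNA differences of 1 (18881 genes). Few genes changed there, whereas in the chase 29.9% of genes rose and 34.4% fell. The recovery therefore does not address which scaling holds for the slopes.

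Members and gene lists were chosen with earlier results of these data known. Members were named by a rule: those passing where 10 or fewer pass; otherwise the 3 most positive and 3 most negative per subunit above an average log2 CPM of 3; where none pass, 2 per sign by p; and 11 members of known role. The other members that fell, were lower or were higher are also named, after their values were seen. Replicate letters a and b were checked for pairing: over 19258 genes the a-minus-b differences of the lines had a Pearson r of 0.34, over members 0.07. With only 2 pairs and no label that ties them, they were not treated as pairs. Alternatives were other scalings, DESeq2 1.42.0, other filters, a replicate block and each library left out.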

Additional observations from a re-analysis of the deposited data

How the results depend on the processing

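In total RNA 0 members passed under each alternative, the replicate block included (0 members, 192 of all genes against 73), and with each library left out (0 to 0). With A375 replicate a, A375 replicate b or MIR211 replicate a left out no gene at all was called (0 of 20117, 20264 and 19976), and without MIR211 replicate b 15 of 19993 were, so those 0s show no stability. The slope difference between lines also gave 0 members, and no gene passed there with all libraries or with any 1 left out. The mean slope gave 29 rising and 6 falling members, against 3 and 19 with total counts, 10 and 12 without mitochondrially encoded genes, 0 and 61 with glycolysis mRNAs held constant, 1 and 35 with cytosolic ribosomal protein mRNAs, and 0 and 67 with the row without a gene. With single libraries left out, 20 to 31 rose and 3 to 6 fell (3 without the MIR211 6 h library). Rising members in A375 (21) numbered 4 with total counts, 9 without mitochondrially encoded genes and 0 to 26 with a library left out. In the MIR211 line (15) they numbered 2, 4 and 0 to 16, and 9 with no count filter. Of 13703 genes, 1293 rose in A375 with total counts and 1832 without mitochondrially encoded genes. In the MIR211 line 948 and 1427 did, and with no count filter 2219 of 33416. Members called in labelled RNA (16) numbered 25 without mitochondrially encoded genes, 45 with glycolysis mRNAs held constant (an alternative added after seeing the data) and 5 to 13 with a library left out. With a library left out, 5.56% to 15.3% of members were lower, against 4.33% to 8.51% of all genes.

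The gap between subunit medians, 0.032 per h, was 0.0083 with MRPS30 and MRPS18A counted as large, 0.0429 in A375, 0.0501 in the MIR211 line, 0.0084 at a mean CPM of at least 5, and 0.0087 to 0.0729 with a library left out.

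Of 1108 alternative values for 79 results on named genes, 938 kept direction and side of the threshold, 106 lost it, 32 gained it and 32 changed sign with a passing test in at least 1 of the settings; another 58 changes of sign passed in neither setting. All 32 are mean slopes with a reference held constant. With glycolysis mRNAs they were -0.17 for MRPL24, -0.11 for MRPL37, -0.10 for MRPL13, -0.23 for MRPS15, -0.23 for MRPS7, -0.15 for MRPS16, -0.19 for MRPL11, -0.34 for MRPL58, -0.37 for MRPL45, -0.38 for MRPS18B and -0.43 for MRPS18C. With cytosolic ribosomal protein mRNAs they were, for the same members without MRPL13, -0.068, -0.016, -0.13, -0.13, -0.050, -0.096, -0.24, -0.27, -0.28 and -0.32. With the row without a gene they were, for all 11, -0.43, -0.37, -0.37, -0.50, -0.49, -0.42, -0.44, -0.60, -0.62, -0.65 and -0.70. The row without a gene rests on 3 to 81 counts per library. BRIC-seq depth limits the lowest members: 9 could not be tested.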
